A study of Homo sapiens with 6 samples.

Results

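YAP1 and WWTR1 (the gene of TAZ) encode the paralogous transcriptional coactivators at the end of the Hippo pathway, and their RNA was described here in HCT116 cells, an established human colorectal carcinoma line, together with 8 genes that are established targets of YAP1 and its DNA-binding partners, the TEAD factors. The 10 genes, taken by symbol out of 60662 genes with a value, were YAP1, WWTR1, CCN1, CCN2, ANKRD1, AMOTL1, AMOTL2, AJUBA, LATS2 and F3. Both groups were HCT116 cells in McCoy's 5a medium carrying a stably integrated hairpin vector. The control group, shCtrl, has the genotype WT in the labels and carried a hairpin with no target, and the GMDS-AS1 KD group carried hairpin 2 against the long noncoding RNA GMDS-AS1. Each group has 3 libraries of poly-A RNA, which the labels call biological replicates. In these libraries the knockdown rests on 1 hairpin sequence in 1 cell line. An effect of that hairpin on other RNAs and an effect of losing GMDS-AS1 therefore cannot be told apart in them. Outside these libraries, the study also reports lower GMDS-AS1 by qPCR with another hairpin and in other cell lines. The deposited unit is TPM, an expression unit scaled for transcript length and library total. The read depth behind each value is therefore unknown.

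In the Hippo pathway, the kinases STK3 and STK4 with their scaffold SAV1 activate the kinases LATS1 and LATS2 with the cofactors MOB1A and MOB1B. LATS kinases phosphorylate YAP1 and TAZ, which keeps the coactivators in the cytoplasm. Unphosphorylated coactivators enter the nucleus and join TEAD factors, which bind the letters GGAATG, and several of the targets so induced act back on the pathway.

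YAP1 lies at chr11:102110461-102233423 on the forward strand of GRCh38, WWTR1 at chr3:149517235-149736714 on the reverse strand, CCN1 at chr1:85580761-85583962 on the forward strand and CCN2 at chr6:131948176-131951373 on the reverse strand. ANKRD1 lies at chr10:90912096-90921276 on the reverse strand, AMOTL1 at chr11:94706431-94876753 on the forward strand, AMOTL2 at chr3:134355874-134375479 on the reverse strand and AJUBA at chr14:22971174-22982642 on the reverse strand. LATS2 lies at chr13:20973032-21061547 and F3 at chr1:94529225-94541800, both on the reverse strand. All 10 are protein-coding genes in the GENCODE v29 annotation.

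The targeted RNA was examined first. GMDS-AS1 is listed as GMDS-DT, a long intergenic noncoding RNA gene at chr6:2245748-2482022 on the forward strand. The target of hairpin 2 is given below with the strand of the hairpin that is complementary to it, since the seed of that strand (bases 2 to 8, in capitals, with its match in the target in capitals) can be looked for in the RNAs of the 10 genes.
target in GMDS-AS1: aagaccacagataGATGGTAa
antisense strand of the hairpin: tTACCATCtatctgtggtctt
The target lies at chr6:2413207-2413227 on the forward strand. It is held by 2 of the 16 annotated transcripts, in exon 3 of the first of them. The level of GMDS-AS1 was 1.66, 2.21 and 1.34 TPM with shCtrl and 0.88, 0.91 and 0.79 TPM in the GMDS-AS1 KD libraries. The groups did not overlap, and all 6 values were low. The log2 fold change was -0.41 ± 0.14 (SE) at an adjusted p of 0.0407. Its adjusted p was under 0.05 in 6 of 13 alternatives. It was 0.132 with no filter, 0.0518 with the replicate number as a block, 0.0802 without shCtrl replicate 1 and 0.117 without shCtrl replicate 2. Without GMDS-AS1 KD replicates 1, 2 and 3 it was 0.0823, 0.0714 and 0.101. A value over all 16 transcripts does not resolve the 2 that hold the target.

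The seed match GATGGTA was found in the 3' UTR of 0 of the 10 genes, against 6.59% of 12826 tested protein-coding genes. The match GTGGTCT, to the seed of the other strand of the hairpin, was found once in YAP1 and in none of the other 9 genes, against 9.57% of the same genes. It is shown with the bases beside it, the match in capitals.
YAP1: tagccttgatGTGGTCTcttgttttat
These bases lie at chr11:102232590-102232616 on the forward strand, in the 3' UTR of YAP1. Such a match is a description of letters, and whether it had a part in the level of YAP1 was not tested.

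Promoter sequence bears on these genes because TEAD factors bind the letters GGAATG. RefSeq start sites on GRCh38.p14 were matched for 9 of the 10 genes, CCN1 being named only. The 250 bases before the start site were searched on both strands. For WWTR1 (chr3:149703274-149703523) and AMOTL1 (chr11:94768106-94768355) this window lies inside the gene bounds given above, at an internal start site. Windows at the outer starts of these genes were not searched. The windows of ANKRD1, AMOTL2, AJUBA and F3 lie in part inside their gene bounds, that of ANKRD1 for the most part. Letters GGAATG were found in CCN2, ANKRD1 and YAP1, that is in 3 of 9 promoters, against 11.9% of 27305 promoters and 9.36% of the 11046 promoters of tested genes. These 3 promoters are given below, 5' to 3' on the strand of the gene, with every match in capitals.
CCN2: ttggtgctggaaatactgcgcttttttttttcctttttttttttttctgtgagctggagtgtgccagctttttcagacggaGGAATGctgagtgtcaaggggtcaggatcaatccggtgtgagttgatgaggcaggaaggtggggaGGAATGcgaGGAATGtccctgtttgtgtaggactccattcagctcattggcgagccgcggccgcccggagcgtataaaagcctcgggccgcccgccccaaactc
ANKRD1: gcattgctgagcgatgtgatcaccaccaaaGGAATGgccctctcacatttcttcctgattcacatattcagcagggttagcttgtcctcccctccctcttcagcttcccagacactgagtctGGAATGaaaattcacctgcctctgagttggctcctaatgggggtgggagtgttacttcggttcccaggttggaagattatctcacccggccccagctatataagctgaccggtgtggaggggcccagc
YAP1: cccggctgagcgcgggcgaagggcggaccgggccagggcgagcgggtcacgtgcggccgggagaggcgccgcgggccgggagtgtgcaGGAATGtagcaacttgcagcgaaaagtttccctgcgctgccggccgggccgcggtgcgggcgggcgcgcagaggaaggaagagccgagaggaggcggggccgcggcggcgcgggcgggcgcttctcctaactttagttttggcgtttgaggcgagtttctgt
The CCN2 promoter (chr6:131951373-131951622, reverse strand) held 3 matches, which begin 169, 104 and 95 bases before the start site. The ANKRD1 promoter (chr10:90921088-90921337, reverse strand) held 2 matches, at 220 and 128 bases before it. The YAP1 promoter (chr11:102110197-102110446, forward strand) held 1, at 162 bases before it. No match says only that these letters are not in this window, and TEAD factors are known to bind distant enhancers as well.

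Letters of AP-1, a factor family that often shares enhancers with TEAD, were searched as TGANTCA. N stands for any base, so this pattern is looser than the usual AP-1 letters TGAGTCA or TGACTCA. Matches to this pattern were found at 2 places in F3, 223 (TGAATCA) and 210 (TGAGTCA) bases before the start site. ANKRD1 held 1, at 195 bases (TGATTCA). Only the match at 210 bases in F3 has the usual letters. The other promoters of the 9 held none, against a match in 6.6% of all promoters and 3.96% of those of tested genes. No AP-1 match overlapped a GGAATG match. The CArG box, the site of serum response factor, was found in 0 of the 9 promoters, in 1.14% of all promoters and in 0.951% of those of tested genes. CCN2, with 3 TEAD matches and no AP-1 match, was lower in GMDS-AS1 KD cells (log2 fold change -3.67). F3, with 2 AP-1 matches and no TEAD match, was lower as well (-1.20). WWTR1, AMOTL1, AMOTL2, AJUBA and LATS2, which held neither in the windows searched, were lower too, as given below. Whether these letters had a part in the changes was not tested.

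**Figure D1:**
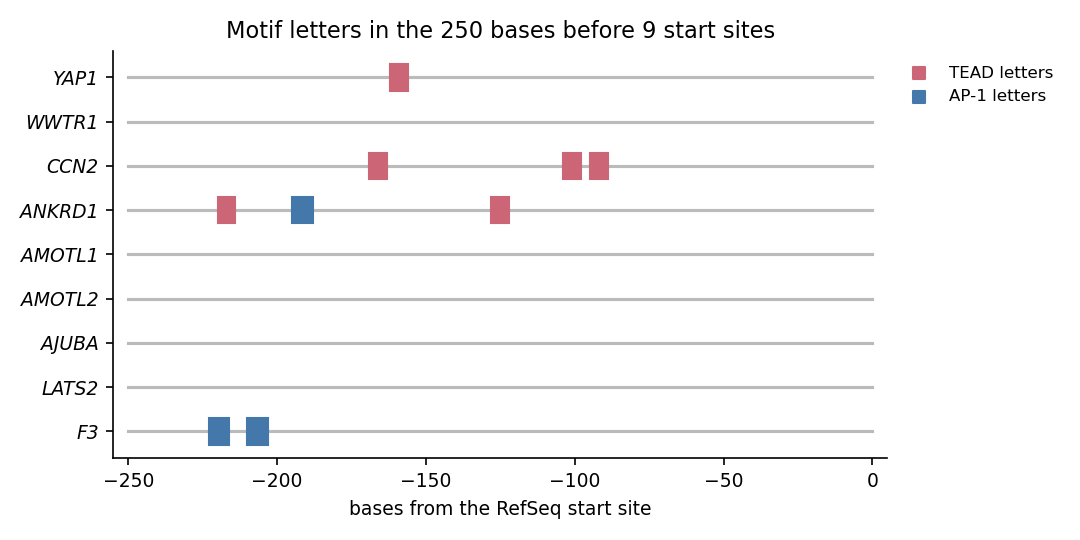
Matches to the letters of TEAD (GGAATG, red) and AP-1 (TGANTCA, blue) in the 250 bases before the RefSeq start site of 9 genes, with the distance from the start site in bases on the x axis and 1 line per gene. The 6 TEAD matches lie in YAP1, CCN2 and ANKRD1, the 3 AP-1 matches in ANKRD1 and F3, and the other 5 lines are empty. Among the empty lines, those of WWTR1 and AMOTL1 belong to internal start sites of these genes.

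Between the groups, YAP1, WWTR1 and each of the 7 targets that passed the filter on low values fell in GMDS-AS1 KD cells. The test took the 16901 genes that reached 0.5 TPM in 3 or more libraries, and a gene was called at a Benjamini-Hochberg adjusted p under 0.05 from limma. ANKRD1 did not pass this filter. Of all tested genes, 25.9% were called lower and 28.5% higher. At least 2-fold lower were 7 of the 9 (YAP1, CCN1, CCN2, AMOTL1, AMOTL2, AJUBA and F3), against 4.24% of all tested genes. In all 9 every GMDS-AS1 KD library was below every shCtrl library after scaling, against 30.3% of all tested genes. The median log2 fold change of the 9 was -1.20, and that of all tested genes was -0.0020. Fold changes are on the log2(TPM + 1) scale after trimmed-mean scaling, which raised the GMDS-AS1 KD values relative to shCtrl. With TPM as deposited the median of all tested genes was -0.20 and that of the 9 was -1.44. The share of lower genes among those called then went from 47.6% to 71.2%, while the 9 stayed lower.

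**Figure D2:**
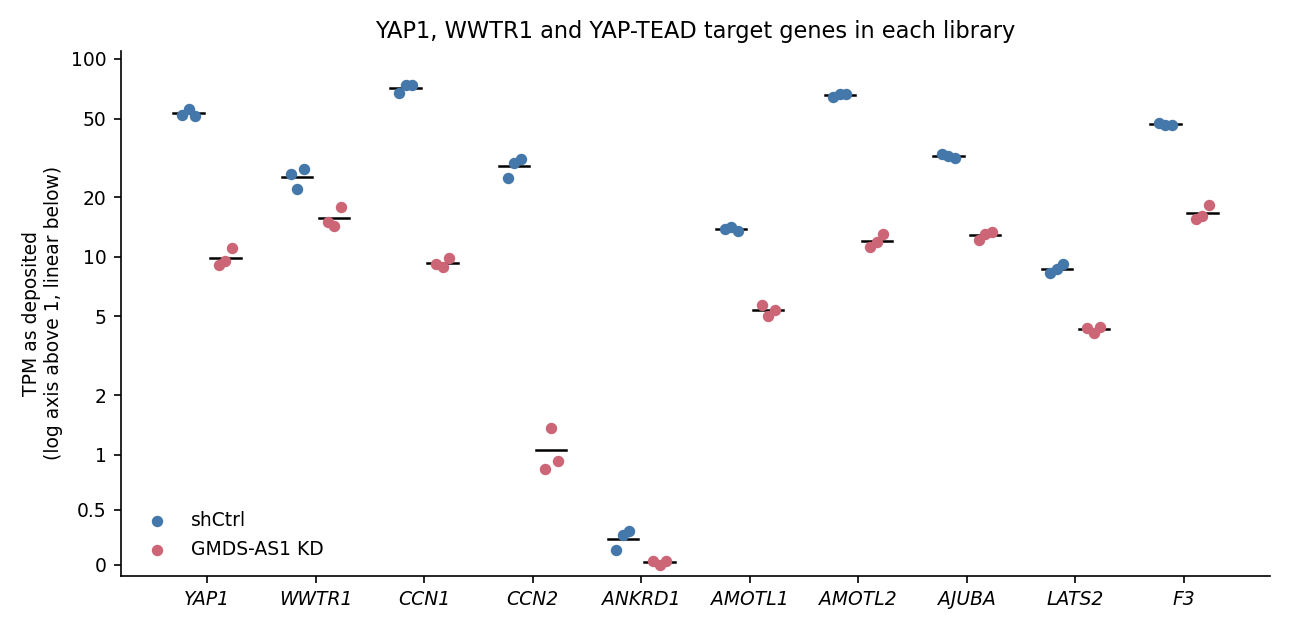
TPM as deposited (y axis, logarithmic above 1 and linear below) of the 10 genes in each of 3 shCtrl (blue) and 3 GMDS-AS1 KD (red) libraries, with a line at each group mean. Every red point lies below every blue point of the same gene, and among the 9 tested genes the gap is widest in CCN2 and narrowest in WWTR1 (lowest shCtrl value 22.03 TPM, highest KD value 17.87 TPM).

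The RNA of both coactivators fell. YAP1, which in shCtrl cells was the more abundant of the pair, stood at 52.25, 55.92 and 51.23 TPM under shCtrl and at 9.07, 9.58 and 11.1 TPM in the GMDS-AS1 KD libraries. The lowest control value was far above the highest knockdown value. Mean TPM fell from 53.1 ± 2.47 to 9.92 ± 1.06 (SD, n = 3), a log2 fold change of -2.08 ± 0.073 (SE) at an adjusted p of 2.04e-06. After scaling, the GMDS-AS1 KD mean was 22.1% of the shCtrl mean, and the fold change had rank 44 of 16901 counted from the most negative.

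WWTR1 stood at 26.2, 22.03 and 27.78 TPM in shCtrl and at 15.02, 14.29 and 17.87 TPM in GMDS-AS1 KD cells. These groups did not overlap, but the gap between them was of the order of the spread within each. Mean TPM went from 25.3 ± 2.97 to 15.7 ± 1.89 (SD, n = 3), a log2 fold change of -0.42 ± 0.11 (SE) at an adjusted p of 0.0163. The call was lost without GMDS-AS1 KD replicate 1 (adjusted p = 0.05002) and without replicate 2 (adjusted p = 0.0513). Its rank was 3529, and the GMDS-AS1 KD mean was 73.6% of the shCtrl mean after scaling.

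Ratios of paralogues were taken within each library from log2(TPM + 1) as deposited, with no scaling between libraries applied. Because of the pseudocount of 1 they are not fully free of scaling where a gene is low, as CCN2 was in GMDS-AS1 KD libraries. The log2 ratio of YAP1 to WWTR1 was 1.04 ± 0.232 in shCtrl and -0.61 ± 0.0731 in GMDS-AS1 KD cells (SD, n = 3), a difference of -1.66 (exact two-sided permutation test, p = 0.1, adjusted over 4 pairs 0.1). No exact permutation test of 3 against 3 libraries can go below p = 0.1. YAP1 made up 66.6%, 71.7% and 64.8% of the summed TPM of the pair in shCtrl libraries and 37.7%, 40.1% and 38.3% in GMDS-AS1 KD libraries. The more abundant coactivator RNA was thus YAP1 in all 3 control libraries and WWTR1 in all 3 knockdown libraries. The sum of both was 78.45, 77.95 and 79.01 TPM in shCtrl and 24.09, 23.87 and 28.97 TPM in GMDS-AS1 KD libraries.

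Among the targets, CCN1 and CCN2 (also known as CYR61 and CTGF) encode secreted matricellular proteins that bind integrins and are the most widely used readouts of YAP1 activity. CCN2 stood at 25.06, 29.92 and 31.16 TPM in shCtrl and at 0.87, 1.36 and 0.94 TPM in GMDS-AS1 KD libraries, so that the knockdown libraries were close to the limit of the filter. Its mean TPM fell from 28.7 ± 3.22 to 1.06 ± 0.265 (SD, n = 3), and its log2 fold change of -3.67 ± 0.13 (SE) at an adjusted p of 2.14e-06 had rank 4 of 16901. With a pseudocount of 0.1 in place of 1 it was -4.42, and after scaling the GMDS-AS1 KD mean was 4.37% of the shCtrl mean. CCN2 had the most negative fold change of the 9 genes in each of the 13 alternatives that test it.

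CCN1 was the most abundant of the 10 RNAs in shCtrl cells, with 67.58, 73.88 and 73.43 TPM, and stood at 9.17, 8.91 and 9.92 TPM in GMDS-AS1 KD cells. Its mean TPM fell from 71.6 ± 3.51 to 9.33 ± 0.524 (SD, n = 3), with a log2 fold change of -2.58 ± 0.057 (SE) at an adjusted p of 4.79e-07 and rank 18. The scaled mean was 15.5% of that of shCtrl. The log2 ratio of CCN1 to CCN2 went from 1.29 ± 0.0940 to 2.34 ± 0.231 (SD, n = 3), a difference of 1.04 (exact two-sided permutation test, p = 0.1), and with a pseudocount of 0.1 the difference was 1.73.

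ANKRD1, a nuclear ankyrin repeat protein of muscle and wounded tissue and the third common readout of YAP1, was hardly present. It was listed at 0.13, 0.27 and 0.31 TPM in shCtrl and at 0.03, 0 and 0.03 TPM in GMDS-AS1 KD libraries. The groups did not overlap, although each value was under the 0.5 TPM limit. When no filter was applied, its log2 fold change was -0.25 ± 0.061 (SE) at an adjusted p of 0.0309, a scale on which a pseudocount of 1 leaves little room for a change of such low values.

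AMOTL1 and AMOTL2 encode angiomotin-like proteins that hold YAP1 at cell junctions, so that they are both targets and inhibitors of it. AMOTL2 stood at 64.39, 66.18 and 66.74 TPM in shCtrl and at 11.23, 11.91 and 13.06 TPM in GMDS-AS1 KD libraries. Its mean TPM fell from 65.8 ± 1.23 to 12.1 ± 0.925 (SD, n = 3), with a log2 fold change of -2.12 ± 0.058 (SE) at an adjusted p of 9.62e-07, rank 42. AMOTL1 stood at 13.8, 14.23 and 13.57 TPM in shCtrl and at 5.74, 5.02 and 5.36 TPM in GMDS-AS1 KD libraries, and its log2 fold change was -1.003 ± 0.066 (SE) at an adjusted p of 2.58e-05. Both genes fell with no overlap, AMOTL2 to 21.8% and AMOTL1 to 46.0% of the scaled shCtrl mean. The log2 ratio of AMOTL1 to AMOTL2 went from -2.17 ± 0.0432 to -1.03 ± 0.153 (SD, n = 3), a difference of 1.13 (exact two-sided permutation test, p = 0.1).

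AJUBA, a LIM domain scaffold that binds and restrains LATS kinases, stood at 32.95, 32.25 and 31.43 TPM in shCtrl and at 12.1, 13.06 and 13.38 TPM in GMDS-AS1 KD libraries. Its log2 fold change was -1.03 ± 0.052 (SE) at an adjusted p of 8.66e-06. AJUBA and AMOTL1 were at the 2-fold limit, and the number of genes at least 2-fold lower was 6 without GMDS-AS1 KD replicate 1, 2 or 3 and 7 without any 1 shCtrl library. An unnamed protein-coding gene on the same strand shares exon sequence with AJUBA (ENSG00000259132), with 6.3 to 11.17 TPM in shCtrl and 5.12 to 7.47 TPM in GMDS-AS1 KD libraries (log2 fold change -0.16, adjusted p = 0.551), so reads of the pair may have been divided between them.

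LATS2, the kinase that phosphorylates YAP1 and TAZ and is itself induced by them, stood at 8.33, 8.66 and 9.16 TPM in shCtrl and at 4.36, 4.13 and 4.42 TPM in GMDS-AS1 KD libraries. The fall was the smallest of the 7 tested targets, with a log2 fold change of -0.66 ± 0.073 (SE) at an adjusted p of 0.000312 and 58.6% of the scaled shCtrl mean. Its paralogue LATS1 stood at 6.1, 5.63 and 6.71 TPM in shCtrl and at 4.73, 3.93 and 4.7 TPM in GMDS-AS1 KD libraries and was not called (log2 fold change -0.18, adjusted p = 0.165). With TPM as deposited LATS1 was called lower (log2 fold change -0.39, adjusted p = 0.0141). The log2 ratio of LATS1 to LATS2 went from -0.45 ± 0.0849 to 0.037 ± 0.0827 (SD, n = 3), a difference of 0.48 (exact two-sided permutation test, p = 0.1).

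F3 encodes tissue factor, the membrane receptor that starts blood coagulation, and is a YAP1 target outside the pathway itself. It stood at 47.44, 46.16 and 46.34 TPM in shCtrl and at 15.52, 16.03 and 18.29 TPM in GMDS-AS1 KD libraries, with narrow control values and no overlap. The log2 fold change was -1.20 ± 0.061 (SE) at an adjusted p of 8.82e-06, and the scaled mean was 42.3% of that of shCtrl.

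**Figure D3:**
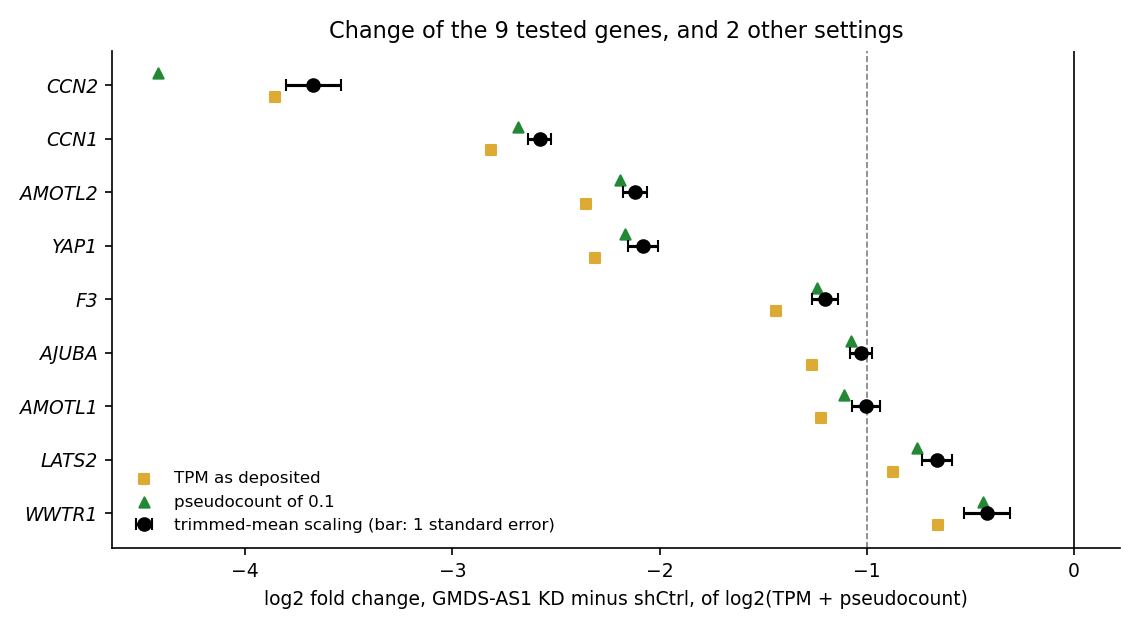
Log2 fold change, GMDS-AS1 KD minus shCtrl, of the 9 tested genes (black, bars of 1 standard error, log2(TPM + 1) after trimmed-mean scaling), with TPM as deposited (yellow squares) and with a pseudocount of 0.1 (green triangles). All points lie below 0, the dashed line marks a 2-fold decrease, and CCN2 moves most with the pseudocount, from -3.67 to -4.42.

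In shCtrl cells the order of the levels per transcript length was CCN1, AMOTL2, YAP1, F3, AJUBA, CCN2, WWTR1, AMOTL1, LATS2 and ANKRD1. Neighbours in this order did not overlap in TPM except CCN2 and WWTR1. In GMDS-AS1 KD cells the order was F3, WWTR1, AJUBA, AMOTL2, YAP1, CCN1, AMOTL1, LATS2, CCN2 and ANKRD1. There F3 overlapped with WWTR1, AJUBA with AMOTL2 and YAP1 with CCN1. CCN1 thus went from the first to the sixth place and WWTR1 from the seventh to the second.

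**Figure D4:**
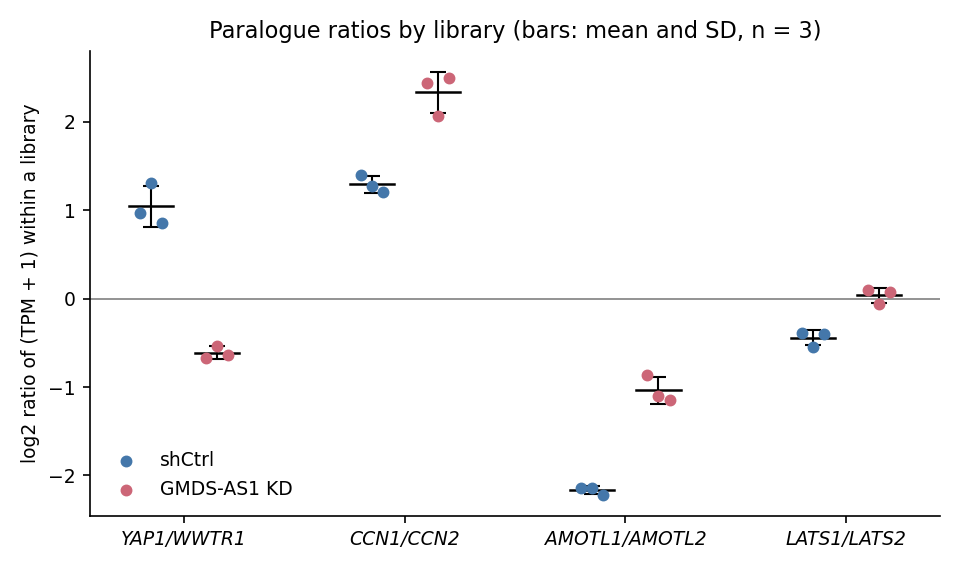
Log2 ratio of TPM + 1 of 4 pairs of paralogues within each library (y axis), for shCtrl (blue) and GMDS-AS1 KD (red), with the mean and SD of 3 libraries as lines. No pair overlaps between the groups, YAP1/WWTR1 crosses from above 0 to below 0, and CCN1/CCN2 and AMOTL1/AMOTL2 rise by 1.04 and 1.13. How often the ratios of other gene pairs separate in this way was not computed.

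The level of YAP1 over the 6 libraries was compared with that of every other tested gene with a mean of at least 5 TPM in 1 group, by the root mean square difference of their scaled log2 values, each set to 0 at its shCtrl mean. This is a description over 6 libraries that share the contrast, and the measure largely compares the sizes of the fold changes. AMOTL2 had a difference of 0.0535 from YAP1, and none of the 10889 other genes compared was closer. CCN1 followed among the targets with a difference of 0.359 and 78 genes closer, then F3 with 264 and AJUBA with 441 genes closer. AMOTL1 had 472, LATS2 1098, CCN2 1731 and WWTR1 2012 genes closer. By this measure CCN2, which fell further than YAP1, is as unlike it as genes that fell less.

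Outside the 10 genes, the 5 closest to YAP1 were RNF167, SPINK2, IGSF3, PDE2A and ITGAX, with differences of 0.063 to 0.120. RNF167, a membrane-bound ubiquitin ligase, stood at 91.24, 95.72 and 83.59 TPM in shCtrl and at 15.33, 16.96 and 17.59 TPM in GMDS-AS1 KD libraries. IGSF3, an immunoglobulin superfamily membrane protein, stood at 18.93, 18.43 and 18.81 TPM in shCtrl and at 2.64, 2.83 and 3.01 TPM in GMDS-AS1 KD libraries. SPINK2, a serine protease inhibitor, had means of 11.2 and 1.57 TPM, PDE2A, a cyclic nucleotide phosphodiesterase, 22.7 and 3.96 TPM, and ITGAX, an integrin alpha subunit, 7.06 and 0.640 TPM. Their log2 fold changes lay between -2.16 and -2.04, and being near that of YAP1 follows from the way they were picked.

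The rest of the Hippo pathway did not move in 1 direction. Of 24 components, 22 were tested (all but VGLL1 and VGLL3, which were under the filter), 7 were called lower, 6 higher and 9 were not called, and their median log2 fold change was -0.10. A share of 7 in 22 is near the 25.9% of all tested genes called lower, and 6 in 22 is near the 28.5% called higher. With TPM as deposited 14 were called lower and 2 higher, beside 40.3% of all tested genes called lower and 16.3% higher at that setting.

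In the kinase cassette of 6 genes, MOB1A was called lower, and STK3, STK4, SAV1, LATS1 and MOB1B were not called. These calls depended on the scaling. With TPM as deposited STK3, STK4, LATS1 and MOB1B were also called lower, beside 40.3% of all tested genes. Their log2 fold changes were then -0.33, -0.34, -0.39 and -0.38 (adjusted p = 0.00688, 0.00209, 0.0141 and 0.0186). SAV1 was still not called (adjusted p = 0.103). With upper-quartile scaling STK4 was called lower too (adjusted p = 0.0320). MOB1A, the cofactor that LATS kinases need for activation, was the only one of the 22 that was at least 2-fold lower on the log2(TPM + 1) scale after trimmed-mean scaling. It stood at 41.81, 40.18 and 41.48 TPM in shCtrl and at 15.39, 13.99 and 15.01 TPM in GMDS-AS1 KD libraries, with a log2 fold change of -1.18 ± 0.048 (SE) at an adjusted p of 3.37e-06. Its paralogue MOB1B had 12.07 to 14.3 TPM in shCtrl and 9.28 to 11.64 TPM in GMDS-AS1 KD libraries (log2 fold change -0.15, adjusted p = 0.238).

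Of 11 upstream and cytoplasmic regulators, 4 were called lower and 4 higher. The lower genes were FRMD6 (log2 fold change -0.94), AMOT (-0.65), FAT1 (-0.64) and WWC1 (-0.42). The pseudocount of 1 understates the change of low genes, and the scaled GMDS-AS1 KD mean was 44.7% of the shCtrl mean for FRMD6 and 45.4% for AMOT, whose log2 fold changes were -1.13 and -1.05 with a pseudocount of 0.1. FAT1, a giant protocadherin, was the most abundant of these with 449.32, 466.06 and 451.24 TPM in shCtrl and 244.83, 246 and 248.38 TPM in GMDS-AS1 KD libraries. AMOT, the founder of the angiomotin family, stood at 2.11, 1.95 and 2.37 TPM in shCtrl and at 0.8, 0.83 and 0.83 TPM in GMDS-AS1 KD libraries, so that all 3 angiomotin genes were lower. Higher were TAOK2 (0.78), NF2 (0.60), TAOK1 (0.34) and LIMD1 (0.28). NF2, the merlin tumor suppressor that activates the pathway, stood at 12.21, 11.06 and 11.07 TPM in shCtrl and at 15.44, 13.56 and 16.53 TPM in GMDS-AS1 KD libraries (adjusted p = 0.000668). With TPM as deposited LIMD1 had an adjusted p of 0.577 and TAOK1 of 0.157. LIMD1 also lost its call without shCtrl replicate 2 or 3 (adjusted p = 0.103 and 0.0522) and without GMDS-AS1 KD replicate 1 or 3 (adjusted p = 0.0744 and 0.0867). The same held for LIMD1 with upper-quartile scaling (adjusted p = 0.0943) and with no filter (adjusted p = 0.0679).

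Among the nuclear partners, TEAD2 (-0.38) and TEAD3 (-0.30) were called lower and TEAD1 (0.23) and TEAD4 (0.25) higher, while VGLL4, which competes with YAP1 for TEAD factors, was not called. With TPM as deposited VGLL4 was called lower (log2 fold change -0.35, adjusted p = 0.0103). The TPM of TEAD1 were 22.51, 22.61 and 22.54 in shCtrl and 22.26, 22.35 and 22.69 in GMDS-AS1 KD libraries, so that its higher call came with the scaling, and with TPM as deposited its log2 fold change was -0.0074. For TEAD4, with 23.83 to 24.74 TPM in shCtrl and 23.59 to 25.55 TPM in GMDS-AS1 KD libraries, it was then 0.015. TEAD2 lost its call without shCtrl replicate 1 or 3 (adjusted p = 0.0829 and 0.114) and without GMDS-AS1 KD replicate 1 or 2 (adjusted p = 0.0814 and 0.0969). It also lost it with no filter (adjusted p = 0.106) and with no variance trend (adjusted p = 0.0564). The log2 fold changes of the 4 TEAD genes lay between -0.38 and 0.25, beside -2.08 for YAP1.

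Other genes of a widely used YAP and TAZ target signature moved in both directions. Of 16 such genes, 12 were tested, as IGFBP3, FOXF2, TGFB2 and RBMS3 were under the filter. Called lower were 5, called higher 4, and 3 were not called, with a median log2 fold change of -0.15. These 5 of 12 stand beside 25.9% of all tested genes, and the 4 of 12 beside 28.5%. With TPM as deposited 8 were called lower and 2 higher, again beside 40.3% and 16.3% of all tested genes.

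On the log2(TPM + 1) scale, AXL and NUAK2 were at least 2-fold lower. AXL, a receptor tyrosine kinase, stood at 51.03, 52.9 and 49.99 TPM in shCtrl and at 14.12, 14.25 and 14.53 TPM in GMDS-AS1 KD libraries, with a log2 fold change of -1.54 ± 0.039 (SE) at an adjusted p of 7.41e-07. NUAK2, a kinase that feeds back on YAP1, stood at 4.84, 4.67 and 5.46 TPM in shCtrl and at 0.84, 1.15 and 1.13 TPM in GMDS-AS1 KD libraries, with a log2 fold change of -1.39 ± 0.11 (SE) at an adjusted p of 7.52e-05. The other lower genes were CCDC80 (-0.75), GADD45A (-0.74) and ASAP1 (-0.57). CCDC80 was low, with 1.4, 1.03 and 0.75 TPM in shCtrl and 0.12, 0.17 and 0.17 TPM in GMDS-AS1 KD libraries, so that its value depended on the pseudocount. A pseudocount of 0.1 gave CCDC80 a log2 fold change of -1.98, and its scaled GMDS-AS1 KD mean was 17.2% of the shCtrl mean, beside 59.6% for GADD45A. GADD45A, a stress-inducible growth arrest gene, was the most abundant of the signature, with 216.4 to 226.7 TPM in shCtrl and 106.46 to 116.02 TPM in GMDS-AS1 KD libraries.

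Higher were MYOF, PTPN14, FJX1 and CRIM1. MYOF, a membrane repair protein, stood at 71.47, 71.51 and 69.2 TPM in shCtrl and at 95.14, 94.93 and 94.34 TPM in GMDS-AS1 KD libraries (log2 fold change 0.66 ± 0.028 (SE), adjusted p = 4.15e-06), a rise with no overlap. PTPN14, a phosphatase that restrains YAP1, stood at 5.29, 5.81 and 6.48 TPM in shCtrl and at 9.3, 7.5 and 7.93 TPM in GMDS-AS1 KD libraries (log2 fold change 0.64, adjusted p = 0.00206). FJX1 (0.60), whose groups overlapped in TPM (4.55, 7.6 and 4.63 in shCtrl, 7.33, 8.13 and 6.87 in GMDS-AS1 KD libraries), lost its call with TPM as deposited (log2 fold change 0.39, adjusted p = 0.106), with no filter (adjusted p = 0.0673), without shCtrl replicate 1 or 3 (adjusted p = 0.0782 and 0.0834) and without GMDS-AS1 KD replicate 1 or 2 (adjusted p = 0.0573 and 0.0743). CRIM1 (0.21) lost its call without shCtrl replicate 1 or 3 (adjusted p = 0.0882 and 0.0609) and without GMDS-AS1 KD replicate 1 (adjusted p = 0.0655). The call of CRIM1 was also lost with the replicate number as a block (adjusted p = 0.0629) and with upper-quartile scaling (adjusted p = 0.108). With TPM as deposited its log2 fold change was -0.022.

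**Figure D5:**
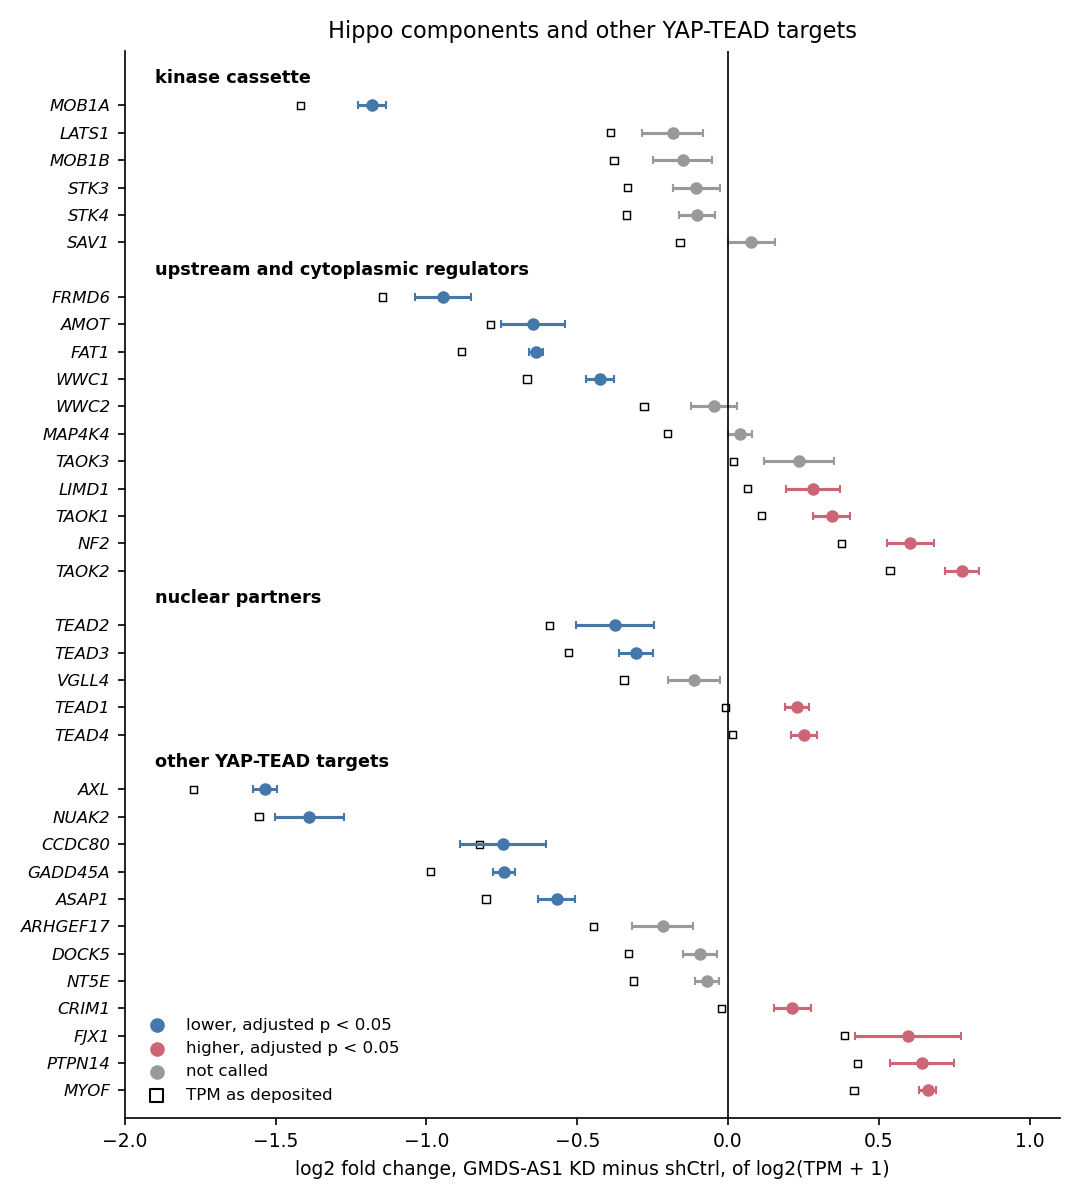
Log2 fold change, GMDS-AS1 KD minus shCtrl, of log2(TPM + 1) for the 22 tested Hippo components and 12 other tested YAP-TEAD targets, with bars of 1 standard error, coloured by the call (blue lower, red higher, grey not called), and with open squares for TPM as deposited. Lower and higher genes stand side by side in every list but the kinase cassette, where MOB1A alone is called.

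AU-rich letters in the 3' UTR were described because HuR, an RNA-binding protein that the study examined with GMDS-AS1, binds AU-rich RNA. The pentamer ATTTA was present in all 10 genes, from 2 copies in AMOTL2 to 12 in WWTR1, against 67.9% of 12826 tested protein-coding genes, whose median was 2 copies. YAP1 and AJUBA each held 9 copies, AMOTL1 7, LATS2 and F3 6, CCN1 5, ANKRD1 4 and CCN2 3. The 3' UTRs ranged from 770 bases in ANKRD1 to 5958 in AMOTL1, with a median of 1034 over the tested genes, and longer UTRs have more room for such letters. The longer form TATTTAT, which is stricter, was held by 7 of the 10, against 31.5%: WWTR1 and ANKRD1 held 3 copies, CCN1 and F3 2, and AMOTL1, AJUBA and LATS2 1.

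YAP1, CCN2 and AMOTL2, which were among the 4 genes with the most negative fold changes, held no copy of the longer form. The fourth of them, CCN1, held 2, and WWTR1, which changed least, held 3. This is a count of letters over few genes and not a test. For the coactivators and for CCN1 and F3, the stretch of 30 bases with the most copies of ATTTA is given, with ATTTA in capitals. Where several stretches tied, the first in the 3' UTR is shown. For YAP1 the stretch holds 1 copy, so it is not a dense one.
WWTR1: aactaatattATTTAtaatctatgaATTTA
YAP1: gaagtcagatgcttcatgtcacagcATTTA
CCN1: aaagattttATTTAtggaattaaccATTTA
F3: tacttattctatcttccATTTAttATTTAt
They lie at chr3:149519104-149519133 (reverse strand), chr11:102230300-102230329 (forward strand), chr1:85583656-85583685 (forward strand) and chr1:94529280-94529309 (reverse strand) of GRCh38, each in the 3' UTR of its gene.

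The cell line was checked against marker lists. EPCAM, CDH1, KRT8, KRT18 and KRT19, markers of epithelial cells, were all present, and their summed level was 9163 to 9612 TPM in shCtrl and 3434 to 3542 TPM in GMDS-AS1 KD libraries. In this list KRT18 (log2 fold change -1.83), KRT8 (-1.46) and KRT19 (-0.26) were lower, while EPCAM (0.18, adjusted p = 0.0758) and CDH1 (0.12, adjusted p = 0.391) were not called. The part of these abundant keratins in the TPM of the other genes, which share 1 total, was not tested beyond the scalings compared. Of 6 fibroblast markers 4 were under 0.5 TPM in every library, and the summed level was 13.5 to 15.0 TPM in shCtrl and 10.2 to 11.2 TPM in GMDS-AS1 KD libraries, nearly all from COL1A1. The 4 immune markers summed to 6.55 to 8.53 and 6.85 to 8.36 TPM, nearly all from CD68, with PTPRC at 0 in all 6 libraries, and the 4 endothelial markers to 0.60 to 1.13 and 0.20 to 0.62 TPM. In bulk RNA, fewer cells that express a gene and less RNA per cell cannot be told apart.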

How the data were processed

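RNA of 3 shCtrl and 3 GMDS-AS1 KD libraries of HCT116 cells was analysed. The authors deposited TPM per Ensembl gene and library. Their processing notes name Trimmomatic 0.27, TopHat2 2.1.1 and a GRCh38 build, and their methods name Cufflinks and RSEM for expression. DESeq2 was used by the authors for their own comparison. The annotation version and strand setting of the counting are not given in the sources used here. A value was read for 60662 genes, and 2 genes with broken lines were left out. TPM keeps no read total, so no counting error was computed. The p-values weigh the difference between groups against the spread between libraries of a group, which holds no variation between hairpins.

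TPM were scaled by trimmed means (30% of log ratios and 5% of mean values trimmed, without weights, on genes passing the filter), and log2(TPM + 1) was fitted in R 4.3.3 by limma 3.58.1, whose variance followed mean expression, for the 16901 genes that reached 0.5 TPM in 3 or more libraries. Positions, exons and 3' UTRs (principal isoform, then longest) came from GENCODE v29, in which 58394 identifiers were found, and promoters from RefSeq. The hairpin came from the oligonucleotides of the study. The fit was tested on simulated data. Python 3.11.15, numpy 2.4.6 and pandas 2.3.3 were used otherwise.

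The 10 genes, the pathway and marker lists and the tests were chosen with earlier results of these data known. Named were the 10 genes, GMDS-AS1, the 5 genes most like YAP1, and listed genes, by count and, where at least 2-fold changed, by value. The other listed genes given with values were chosen after their values were seen. Alternatives covered scaling, pseudocount, filter, variance trend, replicate block and leaving out each library.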

Additional observations from a re-analysis of the deposited data

How the results depend on the processing

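YAP1, CCN1, CCN2, AMOTL1, AMOTL2, AJUBA, LATS2 and F3 kept their direction and an adjusted p under 0.05 in each of the 14 alternatives (13 for CCN2, which has under 1 TPM in some libraries), and the highest adjusted p of YAP1 was 0.000142. WWTR1 kept its direction in 14 and its call in 12. With TPM as deposited, the median log2 fold change of the 9 tested members of the YAP1 group was -1.44 in place of -1.20, the Hippo components called lower were 14 in place of 7 and those called higher 2 in place of 6, and the other targets called lower were 8 in place of 5 and those called higher 2 in place of 4. TEAD1 and CRIM1 then changed sign, to -0.0074 and -0.022. Upper-quartile scaling gave 8 other targets called lower, and a filter of 1 TPM in every library gave 3, since fewer genes were tested. The scalings shift all genes together, and which of them is closer to the cells was not tested.

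Without 1 library at a time, the median was -1.26 to -1.15, 8 to 9 were called lower, 6 to 7 of them at least 2-fold, 11 to 12 Hippo components were called (6 to 7 lower, 5 to 6 higher) and 6 to 9 other targets (4 to 5 lower, 2 to 4 higher, 2 without shCtrl replicate 1, shCtrl replicate 3 or GMDS-AS1 KD replicate 1). The ratio differences were -1.75 to -1.53 (YAP1/WWTR1), 0.96 to 1.17 (CCN1/CCN2), 1.04 to 1.19 (AMOTL1/AMOTL2) and 0.43 to 0.53 (LATS1/LATS2).

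Same-numbered libraries did not deviate together (correlations of 0.029, -0.038 and 0.014 over 16901 genes). No pairing by replicate number was thus seen, but these values cannot show that the samples were unpaired. With the replicate block 9 genes were still called lower, 7 at least 2-fold, and 8631 of all tested genes were called in place of 9182. The ratios had an exact p = 0.25 under the block, the smallest that sign changes of 3 pairs allow. Depth is unknown, which limits statements on ANKRD1 and GMDS-AS1.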
